A study of Mus musculus with 12 samples.

Results

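The genes considered here are 8 neurotrophins, neurotrophin receptors and sortilin-family receptors, namely *Bdnf*, *Ntf3*, *Ntrk2*, *Ntrk3*, *Ngfr*, *Sort1*, *Sorcs3* and *Sorl1*. They were chosen by name, with no threshold on their read counts but with earlier results of these data known, out of 37991 genes counted in the mouse hippocampus, and all 8 were found by Ensembl identifier. Poly(A) RNA was sequenced from the hippocampi of 12 C57BL/6N mice, 6 labelled *Gadd45a*-KO and 6 wild-type siblings labelled Wildtype, each taken 1 h after a passive avoidance (PA) test, in which a mouse learns to stay away from a compartment where it received a shock. The labels give the genotype as Gadd45a-/- or wild type and the age of both groups as 6 to 7 months, while the study's methods give a lower range of ages for its mice. The mice came from crosses of heterozygotes, and per the study's methods the first exons of *Gadd45a* were replaced by a neomycin cassette, a constitutive loss present in every cell rather than in hippocampal neurons alone. No label ties a library to a litter, so the p-values measure the spread between single mice. The comparison asks whether the messages of this growth factor system differ between the labels 1 h after an aversive experience.

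Neurotrophins are small secreted proteins that are made as longer proneurotrophins and cut to the mature form. The mature proteins bind Trk receptor tyrosine kinases, BDNF binding TrkB (from *Ntrk2*) and NT-3 binding mainly TrkC (from *Ntrk3*), and the kinases pass the signal to the Ras-MAPK, PI3K-Akt and phospholipase C pathways. The uncut forms bind the p75 receptor (from *Ngfr*) together with sortilin (from *Sort1*), a sorting receptor whose relatives include SorCS3 and SorLA (from *Sorcs3* and *Sorl1*). In the hippocampus, BDNF acting on TrkB is known for its part in long-term potentiation and in the storage of memory.

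*Bdnf* is known for having many promoters, each feeding its own first exon, and for transcription that rises with neuronal activity through a cAMP response element (CRE). The letters of that element were therefore looked for in start windows of RefSeq (GRCm38.p6 table), each running from 250 bases before to 50 after a start. The table held 14 windows for 6 of the members, 7 of them for *Bdnf*, and none was used for *Ntrk3* or *Sort1*. The full element TGACGTCA was in 0 of the 14 windows, against 1.79% of all 32851 windows. Only exact letters were counted, so an element with a changed letter, such as TCACGTCA in the *Bdnf* site printed below, does not count as full. Its half-site, TGACG or CGTCA on either strand, which the full element also contains, was in 2 of them, against 20.8% of all windows. These 2 sites are shown because they place the letters relative to a start of a ligand and of a sorting receptor. Each is 30 bases long, read 5′ to 3′ on the strand of the gene, with the half-site in capitals.
Bdnf, chr2:109532546-109532575 (+), half-site 35 bases before the start: tatgacagctcaCGTCAaggcagcgtggag
Sorl1, chr9:41932381-41932410 (-), half-site 15 bases before the start: ctgcgagctcacacgTGACGgcacggcgcc
Both windows were matched once to NCBIM37, the build of the count files, and the start of each lies within 50 bases of that of 1 annotated transcript. A match of letters is a description and no evidence of binding, and counts per gene do not show which promoter was in use.

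Each library had between 44594261 and 55540601 reads on genes, and levels are given as CPM, the reads on a gene scaled to a common number of reads per library. *Gadd45a*, the gene targeted, had more reads under the label of its loss. It had 2.19 to 3.43 CPM in the libraries labelled Wildtype and 20.5 to 23.1 CPM in those labelled *Gadd45a*-KO. Taken per gene, this is not the direction of a loss, so libraries are called by their label throughout. Counts per gene cannot separate the exon that the cassette leaves in place from the exons it replaces. *E230016M11Rik*, a non-coding gene that overlaps *Gadd45a* on the opposite strand, had 3.27 to 3.88 CPM under the label Wildtype and 0.0760 to 0.270 CPM under the label *Gadd45a*-KO, the direction that the labels imply. Markers of principal neurons summed to between 7623 and 7892 CPM in the libraries labelled Wildtype and between 7070 and 8403 CPM in those labelled *Gadd45a*-KO, with all 5 of them detected. The 6 thalamic markers summed to 114 to 155 CPM in the libraries labelled Wildtype and 123 to 153 CPM in 4 of those labelled *Gadd45a*-KO, but to 326 CPM in replicate 2 and 516 CPM in replicate 3. The 5 oligodendrocyte markers summed to 2180 to 3464 CPM in the libraries labelled Wildtype, to 2817 to 3539 CPM in 5 of those labelled *Gadd45a*-KO and to 6898 CPM in replicate 3. Over the 11 marker lists, 0 of 47 tested genes passed 1% FDR in edgeR or in DESeq2. An unadjusted p under 0.05 in edgeR was found for 12 of the 47, against 13.7% of all tested genes. Among the 12 were all 5 oligodendrocyte markers and 3 of the 6 thalamic ones. The values of *Ntrk3*, *Ngfr* and *Sorl1* are given with and without these libraries. In bulk tissue, fewer cells of a type and less RNA per cell cannot be told apart.

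At 1% FDR, 0 of the 8 genes differed between the labels in edgeR's quasi-likelihood test, and 0 did in DESeq2. Over all 16399 genes tested, edgeR called 2.65% and DESeq2 3.88% of its 17540. All 8 had passed the filter on low counts. At an unadjusted p under 0.05, 1 of the 8 (*Sorl1*) passed in edgeR and 1 in DESeq2, against 13.7% of all tested genes in edgeR. The ranges of the labels overlapped for all 8. Over all tested genes only 3.31% had ranges that did not overlap, so overlap is the common case and does not set the 8 apart. The log2 fold changes, of the libraries labelled *Gadd45a*-KO over those labelled Wildtype, were negative for 6 of the 8, with a median of -0.05 against 0.00 over all tested genes. The intervals given below are 95% intervals of the fold change, since a p that misses the threshold does not show that the levels were equal.

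**Figure D1:**
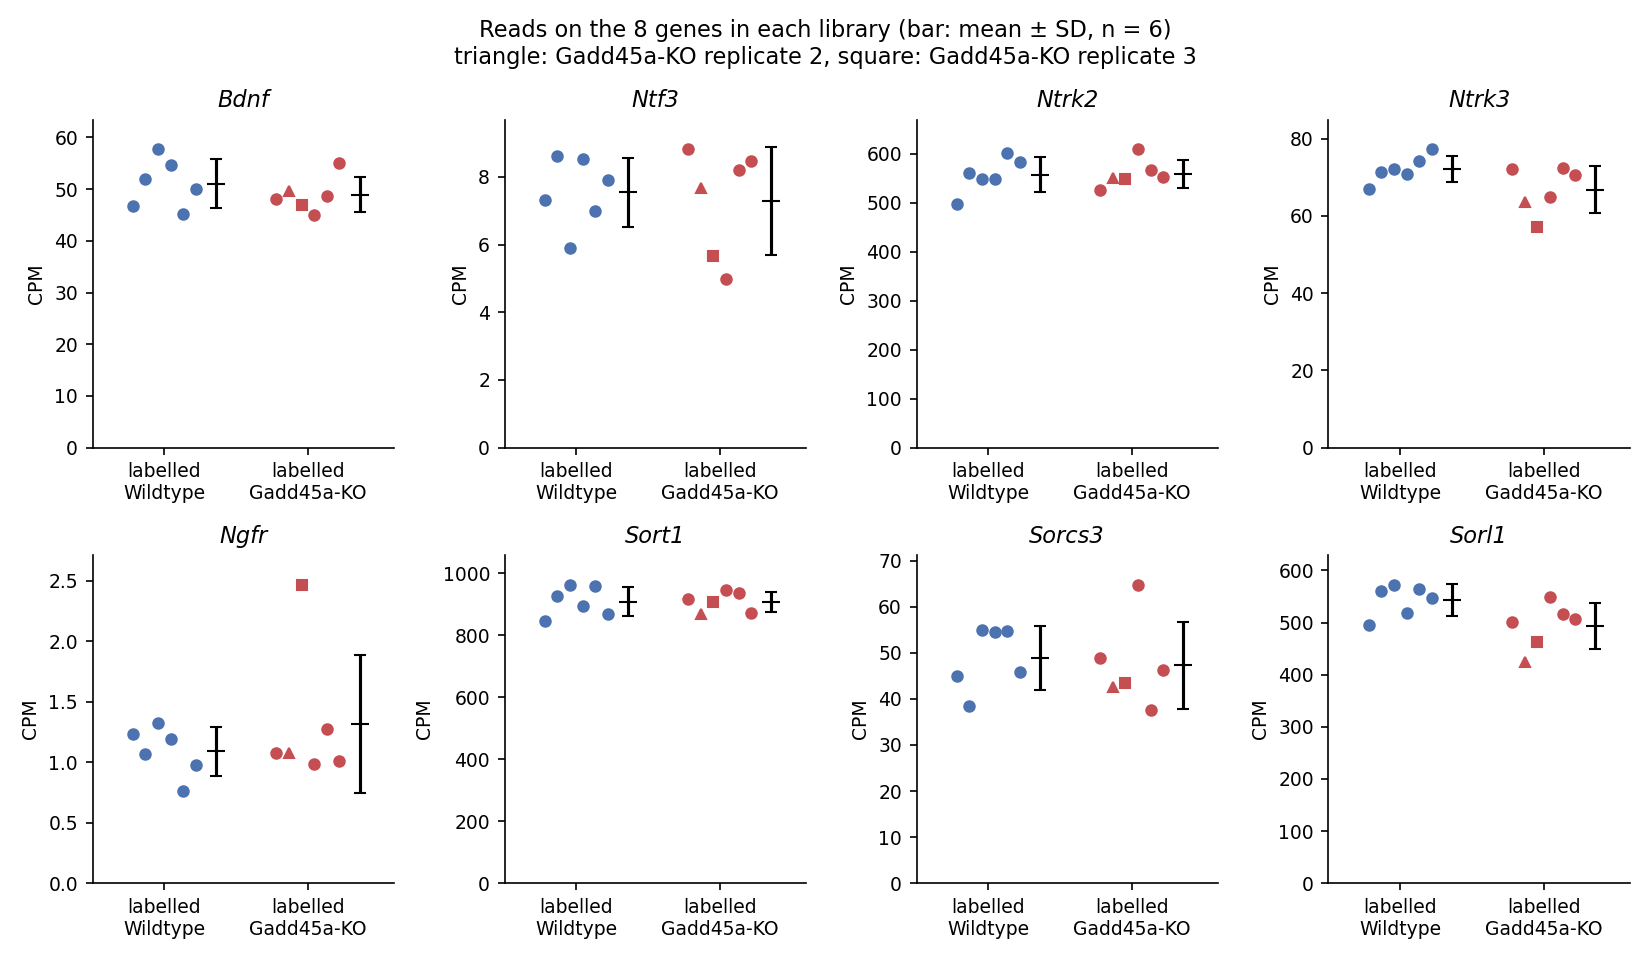
Each point is 1 library and each panel 1 gene, with CPM on the vertical axis from 0, libraries labelled Wildtype in blue and those labelled *Gadd45a*-KO in red, and bars for the mean ± SD (n = 6). The labels overlapped in all 8 panels, and the square (*Gadd45a*-KO replicate 3) stood alone for *Ngfr* at 2.47 CPM.

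The ligand *Bdnf* (ENSMUSG00000048482) lies on the plus strand at chr2:109514857-109567204 of NCBIM37, with 10 annotated transcripts whose exons cover 5850 bases. In the libraries labelled Wildtype, *Bdnf* had 45.3 CPM at the lowest, 51.0 at the median and 57.7 at the highest, from 2127 to 3139 reads. In those labelled *Gadd45a*-KO it had 45.0, 48.4 and 55.0 CPM, from 2186 to 2893 reads. The lowest libraries of both labels were nearly equal, and the ranges almost coincided. The means were 51.0 ± 4.68 and 48.9 ± 3.39 CPM (SD, n = 6), a log2 fold change of -0.06 with a standard error of 0.06 (BH-adjusted p = 0.759, edgeR). The interval of the fold was 0.875 to 1.05. A two-sided exact permutation test of the mean log2 CPM gave p = 0.383.

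*Ntf3* (ENSMUSG00000049107), which encodes the ligand NT-3, lies on the minus strand at chr6:126051431-126116762 and has 2 transcripts over 1427 exonic bases. It is the only one of the 8 genes on the chromosome of *Gadd45a*, 59.1 Mb away from it. *Ntf3* had 5.90, 7.60 and 8.61 CPM (lowest, median and highest) under the label Wildtype and 4.98, 7.94 and 8.81 CPM under the label *Gadd45a*-KO, from 242 to 473 reads over all 12 libraries. Its values spread widely within both labels. In those labelled *Gadd45a*-KO, 4 libraries had 7.67 to 8.81 CPM, while replicate 3 had 5.65 and replicate 4 had 4.98 CPM. The log2 fold change was -0.05 with a standard error of 0.14 (BH-adjusted p = 0.939, edgeR), and its interval reached from a fold of 0.788 to 1.19.

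*Ntrk2* (ENSMUSG00000055254), which encodes the BDNF receptor TrkB, lies on the plus strand at chr13:58907957-59235331 and has 5 transcripts over 15094 exonic bases. Among them are forms with and without the kinase domain, which counts per gene add together. *Ntrk2* had 499, 555 and 603 CPM in the libraries labelled Wildtype and 526, 552 and 609 CPM in those labelled *Gadd45a*-KO, from 22658 to 31699 reads. The ranges of the labels overlapped over most of their length, with the lowest library labelled Wildtype and the highest labelled *Gadd45a*-KO. The means were 557 ± 35.7 and 559 ± 28.0 CPM (SD, n = 6). The log2 fold change was 0.0042 with a standard error of 0.05 (BH-adjusted p = 0.984, edgeR), and the interval of the fold was 0.935 to 1.08. With an offset for transcript length in the same edgeR fit, the log2 fold change was 0.13 (adjusted p = 0.108).

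*Ntrk3* (ENSMUSG00000059146), which encodes the NT-3 receptor TrkC, lies on the minus strand at chr7:85337248-85723294 and has 4 transcripts over 5241 exonic bases. *Ntrk3* had 66.9, 71.7 and 77.2 CPM in the libraries labelled Wildtype, against 57.2, 67.8 and 72.4 CPM in those labelled *Gadd45a*-KO, from 2888 to 3933 reads. Here 3 of the libraries labelled *Gadd45a*-KO, replicates 2, 3 and 4 with 63.5, 57.2 and 65.0 CPM, lay below every library labelled Wildtype, and the other 3 lay among them. The means were 72.1 ± 3.46 and 66.8 ± 6.00 CPM (SD, n = 6), and the log2 fold change was -0.11 with a standard error of 0.06 (BH-adjusted p = 0.419, edgeR). The two-sided exact permutation test gave p = 0.0801. The interval of the fold was 0.853 to 1.01. Replicates 2 and 3 are the libraries with the high thalamic marker sums, and without them the log2 fold change was -0.04, with an interval from -0.14 to 0.06 (adjusted p = 1.00, edgeR). The part of the thalamic markers in this difference was not tested.

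*Ngfr* (ENSMUSG00000000120), the gene of the p75 receptor, lies on the minus strand at chr11:95430132-95449049 and has 1 transcript of 3446 bases. It was the least abundant of the 8 genes, with 40 to 128 reads per library. *Ngfr* had 0.761, 1.13 and 1.32 CPM in the libraries labelled Wildtype and 0.987, 1.08 and 2.47 CPM in those labelled *Gadd45a*-KO. The highest value belonged to replicate 3 labelled *Gadd45a*-KO, while the other 5 libraries with that label had 0.987 to 1.28 CPM and lay within the range of the label Wildtype. The log2 fold change was 0.27 with a standard error of 0.23 (BH-adjusted p = 0.700, edgeR), the largest in size among the 8 genes, although 1695 of all tested genes had a larger one. Without replicate 3 it was -0.0037, with an interval from -0.32 to 0.31 (adjusted p = 0.998, edgeR). In the same library the summed oligodendrocyte markers were 6898 CPM and the thalamic markers 516 CPM, and their part in the *Ngfr* value was not tested. As the plot of marker sums shows, the next highest library had 3539 CPM of oligodendrocyte markers. Basal forebrain cholinergic neurons are the best-known source of p75 in the adult forebrain. Of their markers, *Chat* was between 0 and 0.0879 CPM in all 12 libraries, and *Chat* and *Slc5a7* together summed to 0.514 to 0.819 CPM under the label Wildtype and 0.432 to 0.829 CPM under the label *Gadd45a*-KO. Read counts show RNA in the tissue taken and not protein, and the part of cholinergic neurons in the *Ngfr* value was not tested. Schwann cells also make p75. The 5 markers of Schwann cells and meninges summed to 20.04 to 54.2 CPM under the label Wildtype and, under the label *Gadd45a*-KO, to 35.0 to 45.1 CPM in 4 libraries, 57.1 CPM in replicate 2 and 59.5 CPM in replicate 3, the highest of the 12. Of these markers 3 were tested, with a median log2 fold change of 0.40, and the Schwann cell marker *Pmp2* was at 0 to 0.137 CPM. The part of this list in the *Ngfr* value was not tested.

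*Sort1* (ENSMUSG00000068747), the gene of sortilin, lies on the plus strand at chr3:108087009-108164429 and has 4 transcripts over 7560 exonic bases. It was the most abundant of the 8 genes, with 38377 to 52368 reads per library. *Sort1* had 844, 909 and 962 CPM in the libraries labelled Wildtype and 869, 912 and 946 CPM in those labelled *Gadd45a*-KO. All 6 libraries labelled *Gadd45a*-KO lay inside the range of the label Wildtype. The means were 908 ± 47.8 and 908 ± 32.0 CPM (SD, n = 6), a log2 fold change of -0.00040 with a standard error of 0.04 (BH-adjusted p = 0.999, edgeR). The interval of the fold was 0.941 to 1.06, the narrowest of the 8 genes.

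*Sorcs3* (ENSMUSG00000063434) encodes a sortilin relative that is enriched in forebrain neurons. It lies on the plus strand at chr19:48280515-48879995 and has 1 transcript of 5634 bases. *Sorcs3* had 38.4, 50.2 and 55.0 CPM in the libraries labelled Wildtype and 37.6, 44.9 and 64.8 CPM in those labelled *Gadd45a*-KO, from 1724 to 3148 reads. Both the lowest and the highest of the 12 libraries were labelled *Gadd45a*-KO, replicates 5 and 4. The log2 fold change was -0.05 with a standard error of 0.12 (BH-adjusted p = 0.925, edgeR), and the interval of the fold was 0.810 to 1.15. Without replicate 4 the log2 fold change was -0.15, the lowest value over the 20 alternatives, at which *Sorcs3* still did not pass (adjusted p = 0.480, edgeR).

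*Sorl1* (ENSMUSG00000049313), which encodes SorLA, a sorting receptor best known for carrying the amyloid precursor protein, lies on the minus strand at chr9:41772803-41932380 and has 4 transcripts over 11321 exonic bases. *Sorl1* had 495, 554 and 572 CPM in the libraries labelled Wildtype and 425, 503 and 549 CPM in those labelled *Gadd45a*-KO, from 19322 to 31155 reads. The lowest values were those of *Gadd45a*-KO replicate 2 with 425 CPM and replicate 3 with 463 CPM, both below every library labelled Wildtype. The other 4 had 500 to 549 CPM and lay among them. The means were 543 ± 30.6 and 493 ± 43.6 CPM (SD, n = 6). The log2 fold change was -0.14 with a standard error of 0.06, which did not pass at 1% FDR (BH-adjusted p = 0.290, edgeR). The interval of the fold, 0.833 to 0.990, did not include 1, and the two-sided exact permutation test gave p = 0.0455, which is not adjusted for the 8 genes. The 2 lowest libraries are those with the high thalamic marker sums. Without them the log2 fold change was -0.07 with an interval from -0.17 to 0.04 (adjusted p = 0.922, edgeR), and with an offset for transcript length it was -0.04 (adjusted p = 0.834, edgeR). Whether the thalamic markers had a part in the *Sorl1* values was not tested.

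**Figure D2:**
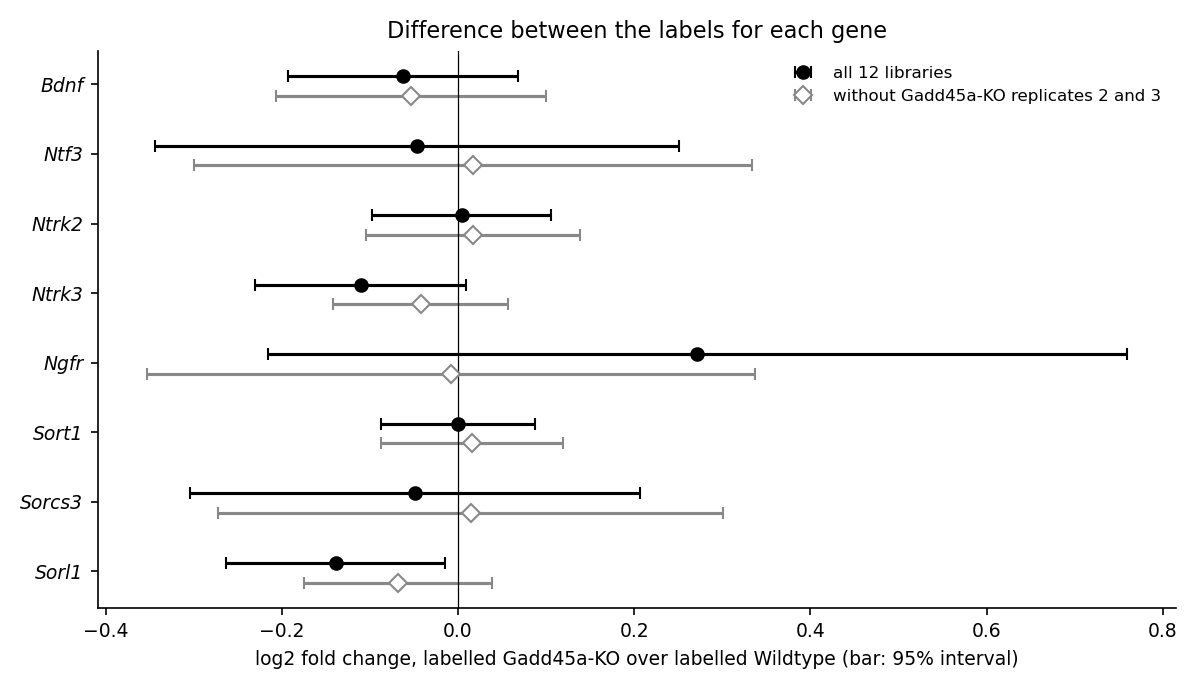
Log2 fold changes of the 8 genes on the horizontal axis with 95% intervals, from all 12 libraries (filled) and without *Gadd45a*-KO replicates 2 and 3 (open). Only the interval of *Sorl1* with all libraries, -0.26 to -0.01, lay on one side of 0, and without these replicates *Ngfr* moved from 0.27 to -0.01.

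**Figure D3:**
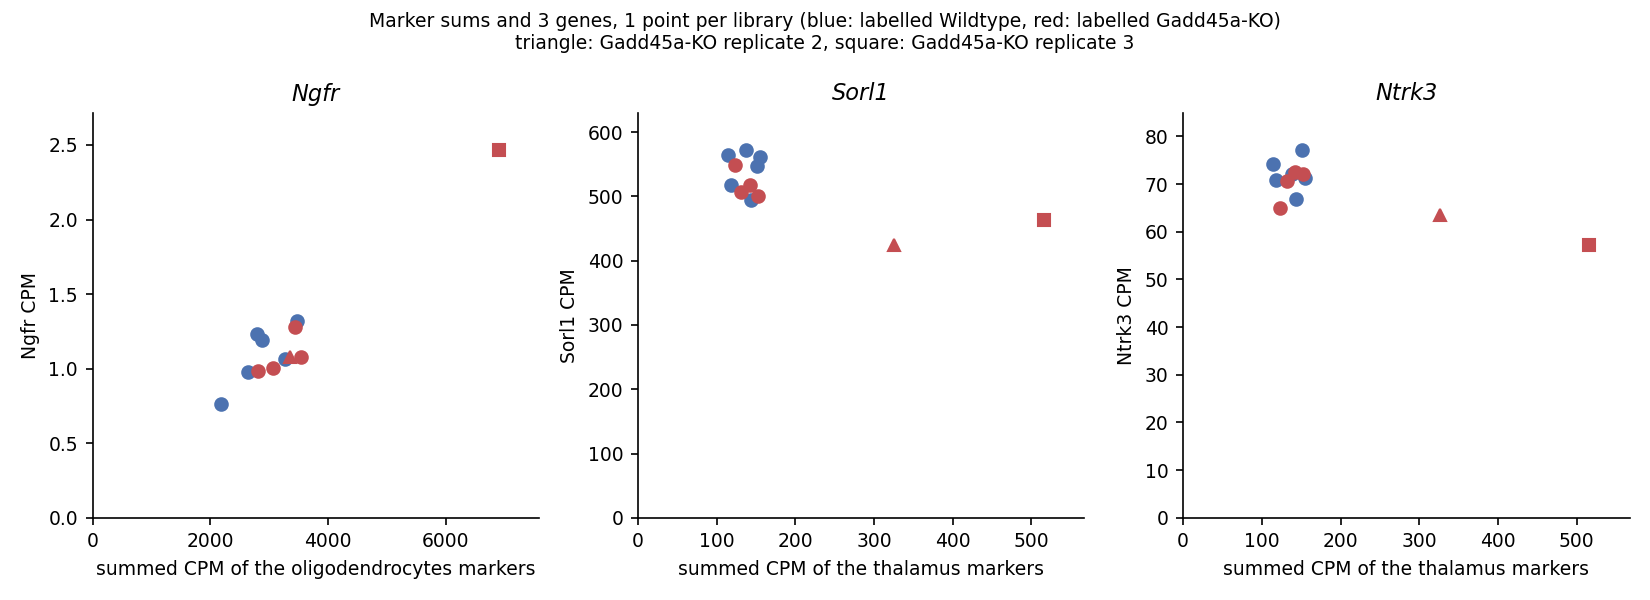
Summed CPM of oligodendrocyte or thalamic markers on the horizontal axis against the CPM of *Ngfr*, *Sorl1* and *Ntrk3*, 1 point per library, libraries labelled Wildtype in blue and those labelled *Gadd45a*-KO in red. *Gadd45a*-KO replicate 3 (square) stood apart at 6898 CPM of oligodendrocyte markers, and replicates 2 (triangle) and 3 at 326 and 516 CPM of thalamic markers.

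Levels were compared between genes per length, as CPM per kb of exons, over all 12 libraries. *Sort1* was highest with 120 ± 5.13 CPM per kb, followed by *Sorl1* with 45.8 ± 3.92 and *Ntrk2* with 37.0 ± 2.03 (SD, n = 12). *Ntrk3* had 13.3 ± 1.04, *Bdnf* 8.54 ± 0.693, *Sorcs3* 8.54 with a range of 6.67 to 11.5, *Ntf3* 5.20 ± 0.902 and *Ngfr* 0.349 ± 0.124 CPM per kb. By this length both Trk receptors were above both ligands, which does not hold for *Ntrk3* and *Bdnf* by coding length, and *Ngfr* was lowest by both. Neighbours in this order had separate ranges except in 2 places. *Sorl1* and *Ntrk2* overlapped, although *Sorl1* was above *Ntrk2* in each of the 12 libraries, by a ratio of 1.24 between the means. *Bdnf* and *Sorcs3* did not differ beyond their spread, with *Bdnf* above *Sorcs3* in 8 of the 12 libraries. The order depends on the length used. With the coding length in place of all exons, 4 of the 8 genes kept their place, since *Ntrk2* moved above *Sorl1* and *Bdnf* above *Ntrk3*.

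**Figure D4:**
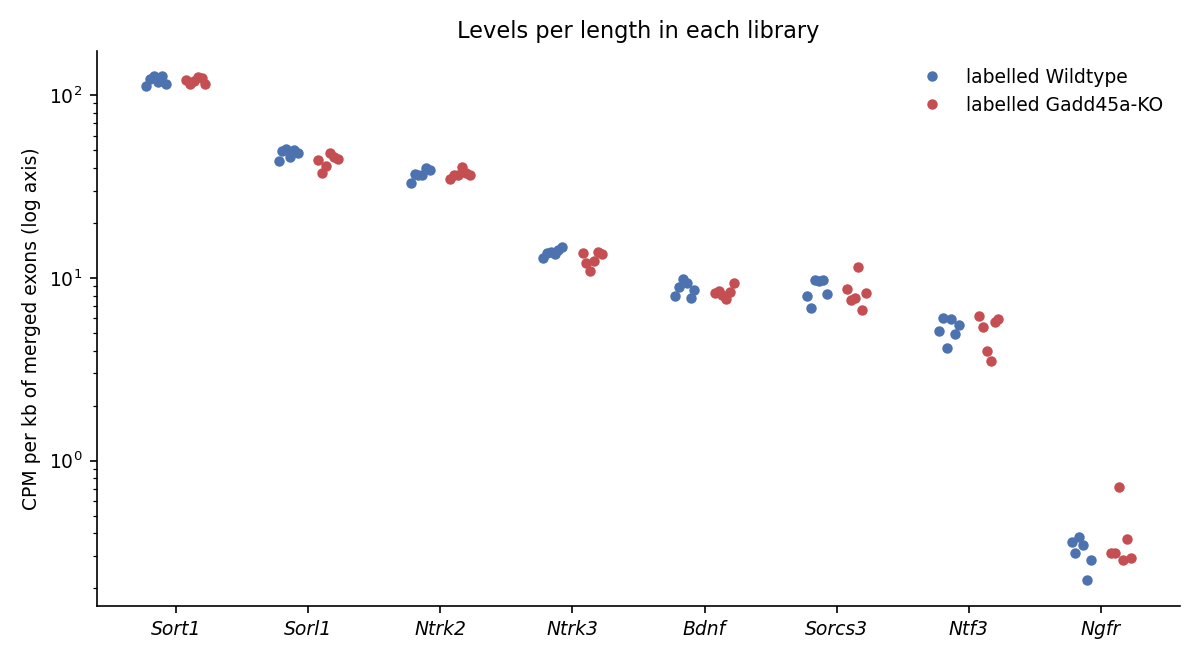
CPM per kb of merged exons on a log axis for the 8 genes in order of their mean, 1 point per library, libraries labelled Wildtype in blue and those labelled *Gadd45a*-KO in red. The levels ran from 120 CPM per kb for *Sort1* to 0.349 for *Ngfr*, and the labels overlapped for every gene.

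The spread between mice of one label also differed among the genes. On the log2 scale the SD within labels was 0.06 for *Sort1*, 0.08 for *Ntrk2*, 0.11 for *Ntrk3* and *Sorl1* and 0.12 for *Bdnf*, so that *Bdnf* stood at the 50.1 percentile of all tested genes. It was larger for *Sorcs3* with 0.24, *Ntf3* with 0.28 and *Ngfr* with 0.40, the last at the 92.8 percentile. *Ngfr* and *Ntf3* had the fewest reads of the 8 genes, but *Sorcs3* had about as many reads as *Bdnf* and a spread closer to that of *Ntf3*.

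Ratios within a library do not depend on how the libraries are scaled. The log2 ratio of *Bdnf* to its receptor gene *Ntrk2* was -3.45 ± 0.17 in the libraries labelled Wildtype and -3.52 ± 0.14 in those labelled *Gadd45a*-KO (SD, n = 6, two-sided exact permutation p = 0.459). For *Ntrk3* over *Ntrk2*, the balance of TrkC to TrkB message, it was -2.95 ± 0.04 and -3.07 ± 0.16 (exact permutation p = 0.121, or 0.364 adjusted over the 3 ratios). The libraries labelled *Gadd45a*-KO spread more widely in this ratio, from -3.26 to -2.87, than those labelled Wildtype, from -3.02 to -2.90. Without *Gadd45a*-KO replicate 1 the difference was -0.16 with an exact permutation p of 0.0238, not adjusted. The ratio of *Ngfr* to *Ntrk2* was -9.02 ± 0.37 and -8.81 ± 0.52 (exact permutation p = 0.515), with *Gadd45a*-KO replicate 3 highest at -7.80. Without that library the difference of 0.20 between the labels became -0.0025 (exact permutation p = 0.989). None of the 3 ratios passed after adjustment.

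For each of the 8 genes, the 3 genes whose log2 CPM followed it most closely over the 12 libraries, after the mean of each label was subtracted, were looked up among 16391 candidates. They are given as a description, since the highest of so many correlations over so few mice is high in any case, and the libraries share depth and composition. For *Bdnf* they were *Daglb* (Pearson's r = 0.882), *Lpin3* (0.879) and *Mki67ip* (0.864), the loosest of the 8. *Ntf3* was closest to *Il20rb* (0.963), *Tiam2* and *A830036E02Rik*, and *Ntrk2* to *Alg6* (0.932), *Sh3glb1* and *Kctd16*. *Ntrk3* was closest to *Angel2* (0.932), *Gm17509* and *D3Bwg0562e*, and *Sort1* to *Slc8a1* (0.933), *Pi4ka* and *Dgkg*. *Sorcs3* was closest to *Tmem8c* (0.958), *Sept6* and *Ccnd1*, and *Sorl1* to *Dlgap2* (0.959), *Myt1l* and *Hivep2*. For *Ngfr*, *Qdpr* came first with 0.977, then *Tnni1* and *Pigz*, and without *Gadd45a*-KO replicate 3 the value for *Qdpr* was 0.936.

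The rest of the system was described with 7 lists of 116 genes in all, of which 112 were tested. At 1% FDR in edgeR, 4 had fewer reads under the label *Gadd45a*-KO, the label with more reads on *Gadd45a* itself, and 0 had more. The 4 are 3.57% of the 112, against 2.62% of all tested genes called lower, and the median log2 fold change of the 112 was -0.01 against 0.00. An unadjusted p under 0.05 was found for 21 of the 112 in edgeR, against 13.7% of all tested genes. The same share is the one to set beside the unadjusted counts of the single lists below. DESeq2 called 6 lower and 0 higher, against 3.88% of all genes it tested, in either direction. Among the remaining neurotrophins and receptors of the family, 3 of 5 were tested and 0 passed in edgeR or DESeq2 or at an unadjusted p under 0.05. *Sorcs2*, a receptor of the sortilin family, had 59.9 ± 2.68 and 59.5 ± 1.67 CPM under the labels Wildtype and *Gadd45a*-KO (SD, n = 6). The ligand gene *Ntf5*, with 2 to 8 reads, was too low to be tested.

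Of the proteases and inhibitors that process proneurotrophins, 10 of 12 were tested and 0 passed in either tool (1 at an unadjusted p under 0.05 in edgeR), with a median log2 fold change of -0.01. The highest per length were *Pcsk2*, a convertase of the secretory pathway, with a log2 fold change of 0.07, and *Serpini1*, the protease inhibitor neuroserpin, with -0.04. Of 22 adaptors and phospholipases that dock at Trk receptors, 0 passed in edgeR and 1 in DESeq2, and 6 had an unadjusted p under 0.05 in edgeR (median 0.01). *Kidins220*, a scaffold of Trk signalling, had a log2 fold change of -0.10 (BH-adjusted p = 0.312, edgeR) and the adaptor *Grb2* of 0.04. Of 18 partners of p75, 0 passed in either tool, with 2 at an unadjusted p under 0.05 in edgeR (median 0.02). These 2 include a gene that is also in the list of oligodendrocyte markers. *Maged1*, which binds the p75 receptor, had a log2 fold change of 0.0047 and *Ngfrap1*, a p75-associated death factor, of -0.03. Of 15 genes of sortilin-family trafficking, 0 passed in either tool, with 2 at an unadjusted p under 0.05 in edgeR (median 0.01). *App*, the amyloid precursor protein, was at 0.06 on the log2 scale and *Vps35*, a part of the retromer coat, at 0.03.

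In the Ras-MAPK and PI3K-Akt relay, 3 of 32 genes (9.38%) were lower at 1% FDR, against 2.62% of all tested genes, and 0 were higher. A negative log2 fold change was found for 27 of the 32, and for 66 of the 112 genes of all 7 lists. The median of the relay was -0.03, against 0.00 over all tested genes. *Pdpk1*, the kinase that activates Akt, had 160 to 184 CPM in the libraries labelled Wildtype and 132 to 150 CPM in those labelled *Gadd45a*-KO. The ranges did not overlap, which held for 3.31% of all tested genes. The log2 fold change of *Pdpk1* was -0.31 with a standard error of 0.05 (BH-adjusted p = 0.000845, edgeR). *Braf*, a Raf kinase at the head of the MAPK cascade, had 186 to 215 and 173 to 181 CPM, again without overlap, and its log2 fold change was -0.19 (adjusted p = 0.00586, edgeR). *Pik3ca*, a catalytic subunit of PI3K, had 66.6 to 77.3 and 60.4 to 65.0 CPM, and its log2 fold change was -0.19 (adjusted p = 0.00980, edgeR). *Map2k1*, among the most abundant kinases of the list per length, had a log2 fold change of -0.02 and did not pass. *Pdpk1* passed in 19 of 20 alternatives, with each of the 12 libraries left out among them. *Braf* passed in 5 alternatives, of which 2 left out a library (Wildtype replicate 1 or 4), and *Pik3ca* in 2, of which 1 did (Wildtype replicate 1). With any other library left out, the adjusted p reached 0.0259 for *Braf* and 0.0443 for *Pik3ca* (edgeR). Without *Gadd45a*-KO replicates 2 and 3, the log2 fold change of *Pdpk1* was -0.27 (adjusted p = 0.00767), of *Braf* -0.18 (adjusted p = 0.0412) and of *Pik3ca* -0.19 (adjusted p = 0.0412). With an offset for transcript length *Braf* had a log2 fold change of -0.07 (adjusted p = 0.398, edgeR), *Pik3ca* -0.12 (adjusted p = 0.0341) and *Pdpk1* -0.22 (adjusted p = 0.00348).

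Of 12 regulators of *Bdnf* transcription, 1 (8.33%) was lower at 1% FDR, against 2.62% of all tested genes, and 0 were higher. The median log2 fold change of the 12 was -0.05, and -0.01 without *Gadd45a*-KO replicates 2 and 3. *Mef2d* and *Arnt2*, the most abundant per length of these transcription factors, had log2 fold changes of -0.06 and -0.02. *Bdnf* itself was at -0.06, as given above.

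**Figure D5:**
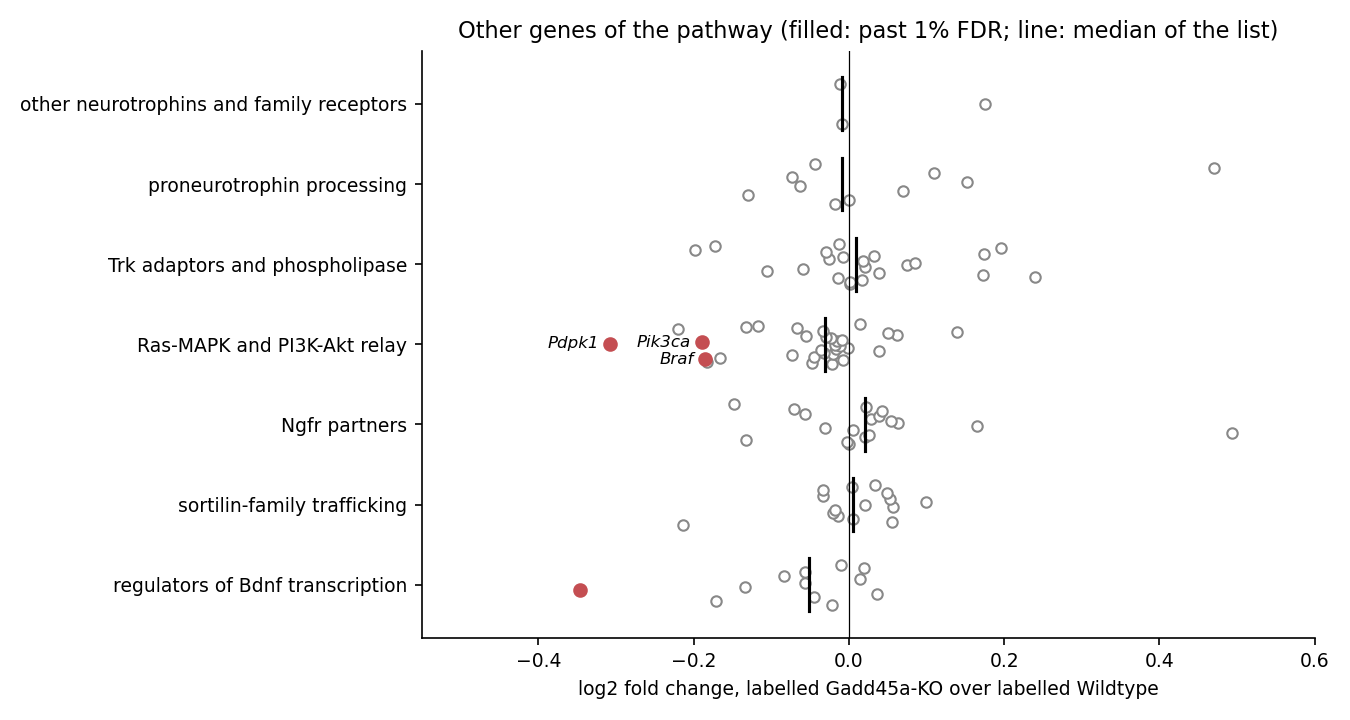
Log2 fold changes of the 112 tested genes of the 7 lists on the horizontal axis, 1 point per gene, filled where the gene passed 1% FDR, with a line at the median of each list. The 4 filled points, of which *Pdpk1*, *Braf* and *Pik3ca* are named, lay on the negative side, and all medians lay between -0.05 and 0.02.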

How the data were processed

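The authors sequenced stranded poly(A) libraries, aligned the reads with TopHat 1.4.1 to NCBIM37 (mm9), counted them per Ensembl gene with HTSeq 0.5.4p3 on the matching strand and deposited raw read counts, 1 table per mouse, without normalization or pooling. Groups and replicate numbers come from the sample titles. Reads without a gene were 14.4 to 15.8% of those counted under the label Wildtype and 13.0 to 14.3% under the label *Gadd45a*-KO. These ranges did not overlap, and the part of this difference in the results was not tested. Ambiguous reads were 0.626 to 0.694%. Reads of both kinds were left out of totals and tests. Symbols and exons were taken from an annotation of the same build (Ensembl 65) for 37205 of the 37991 identifiers. No same-strand gene overlaps a member. Pairs of libraries with one label differed by more than counting error (chi-square per degree of freedom 9.03 to 40.8 over 30 pairs), so none was counted as a repeat.

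Counts were scaled with TMM factors, filtered and tested with edgeR 4.0.16 (quasi-likelihood test, R 4.3.3) without covariates, with Benjamini-Hochberg (BH) adjustment over all genes tested and a threshold of 1% FDR. Each standard error was taken as the absolute log2 fold change divided by the root of F. DESeq2 1.42.0, RLE factors, other filters, 5% FDR, a spline offset for transcript length, the replicate number as a block and leaving out each library were the alternatives. Leaving out *Gadd45a*-KO replicates 2 and 3 together was chosen after seeing the data. Exact permutation tests (Python 3.11.15, scipy 1.17.1) enumerate all splits of 6 against 6, for which the smallest two-sided p is 0.00216. The procedures were tested on simulated data. Per pathway list, the genes named are up to 4 past 1% FDR and the 2 highest per length, with the 3 genes most like each member, and *Gadd45a* as the check of the labels. Some genes that this rule names are not reported here. The members and lists were chosen with earlier results of these data known. Reads along exons or promoters were not analysed here.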

Additional observations from a re-analysis of the deposited data

Results flagged for a closer look

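In 80 groups of 6 libraries (each gene named above, the ratios and the marker sums, by label), 1 library was looked for that stood apart from the nearest of the others by more than Dixon's limit. Chance alone gives about 1 in 20, or 4 of 80, and 4 were found. *Ngfr* in *Gadd45a*-KO replicate 3 was at 2.47 CPM, against 0.987 to 1.28 CPM in the other 5. The log2 ratio of *Ngfr* to *Ntrk2* was -7.80 in the same library, against -9.27 to -8.79 in the others, which repeats the *Ngfr* value and is no separate result. The summed oligodendrocyte markers were 6898 CPM in that library, against 2817 to 3539 CPM. *Ngfrap1* was at 116 CPM in *Gadd45a*-KO replicate 6, against 98.8 to 105 CPM. *Ngfr* and the oligodendrocyte markers thus stood apart in one and the same mouse, and their relation was not tested.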

How the results depend on the processing

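None of the 8 genes passed 1% FDR under any of the 20 alternatives (0 of 8 in each leave-one-out fit). The log2 fold changes of *Bdnf*, *Ntrk3* and *Sorl1* stayed negative throughout, while that of *Sort1*, close to 0, changed sign in 16, *Ntf3* in 5, and *Ntrk2*, *Ngfr* and *Sorcs3* in 2 each. The number of genes past 1% FDR was 434, and 680 with DESeq2, 281 with the length offset, 746 at 5% FDR, 202 without *Gadd45a*-KO replicates 2 and 3, and 242 to 470 when 1 library was left out. Of the wider pathway genes, 4 passed, and 1 with the length offset, 2 without a filter, 1 without *Gadd45a*-KO replicates 2 and 3, 8 at 5% FDR, and 1 to 5 when 1 library was left out. The difference in the log2 ratio of *Ntrk3* to *Ntrk2* ran from -0.16 to -0.081 with 1 library left out. By coding length, 4 of 8 genes kept their place in the order of levels. The causes of these changes were not tested.

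Libraries with equal replicate numbers correlated at -0.0761 to 0.262 over 6 pairs, with a mean of 0.140 against -0.0279 for other pairs. Of these 6 pairs, 5 were over 0.1. The main fit did not take the numbers as pairs, and whether equal numbers mark a shared origin was not tested. Of the libraries, 1 of 6 labelled Wildtype and 3 of 6 labelled *Gadd45a*-KO correlated best with its own number. In a fit with a replicate block, 514 genes passed in all and 2 of the wider pathway, or 304 and 1 with the length offset too, and 0 of the 8 genes passed. In edgeR, *Braf* and *Pik3ca* were over the threshold with the block (adjusted p = 0.0131 and 0.0261), and *Pdpk1* with the block and the offset (adjusted p = 0.0122), the single alternative in which it did not pass. *Ngfr*, with 40 to 128 reads, had the widest interval of the 8 genes, -0.22 to 0.76 on the log2 scale, and -0.32 to 0.31 without *Gadd45a*-KO replicate 3.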
